A study of Mus musculus with 6 samples.

Results

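H3K27ac, an acetylation of histone H3 that marks active promoters and enhancers, was examined at 7 genes of the Gq signalling pathway in low-pigment (LP) and high-pigment (HP) mouse melanoma cells. The genes were Gnaq, Gna11, Plcb4, Rasgrp3, Prkca, Prkcb and Prkce. Every H3K27ac peak that overlapped one of them or the 20 kb on either side in the GENCODE annotation of mm10 was taken, which gave 400 of the 260810 peaks in the 4 lists. After overlapping peaks were merged across libraries these formed 284 of 182956 regions. The cells were B16 F10, a pigmented mouse melanoma line whose cell type is given as Melanocytes, seeded at 100 cells per cm2 and taken at day 5 of the progressive pigmentation model, in which sparse cultures darken over days. LP and HP cells came from that culture, and the labels give no genetic change or added agent that set them apart. They were separated in a flow cytometer by side scatter, an optical measure that rises with pigment granules, and were fixed in 1% formaldehyde for 10 minutes. Each population had 2 H3K27ac libraries, and 1 IgG library of unsorted cells per replicate number served the authors as the control for peak calling.

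Gq proteins couple receptors on the cell surface to phospholipase C beta, which splits a membrane lipid into inositol trisphosphate and diacylglycerol. The first releases calcium, and the second recruits protein kinase C and the Ras activator RasGRP3 to the membrane. In the melanocyte lineage this is the pathway through which endothelin receptors signal, activating changes in Gnaq or Gna11 darken mouse skin, and most uveal melanomas carry a mutation in one of the 2 human counterparts.

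The LP libraries held 11467942 and 15353176 fragments and the HP libraries 11483830 and 14254904. Between 57942 and 71529 peaks were called per library, and the median pileup of a peak, the number of fragments over its summit, was 7 to 12. Pileups are therefore given per 1000000 fragments of their library (scaled pileup), a scale on which 1 fragment was worth 0.0651 to 0.0872. Over the 12084 regions called in all 4 libraries the median HP minus LP difference was 0.92 on the log2 scale, 0.57 in replicate 1 and 1.30 in replicate 2, so values at single genes stand beside this shift. Of 8 melanocyte markers, 7 had a peak at a transcription start site (TSS) in all 4 libraries (Kit in 1), and the 8 keratinocyte, endothelial and leukocyte markers had none in any. Of the 3 fibroblast markers Col1a1 was called in 3 libraries, Pdgfra in 2 and Col1a2 in 0.

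H3K27ac over the 7 genes was concentrated at the start sites of Gnaq, Gna11, Plcb4, Prkca and Prkce, which were called in every library. The start of Rasgrp3 and the whole of Prkcb held no such region. Among regions called in every library, the strongest differences between LP and HP cells were not at the start sites but inside the introns of Gnaq and Prkce. Over all such regions too the median log2 difference was larger in introns (1.07) than at promoters (0.90). The tests of these 2 intronic regions did not hold in every processing setting, as given below. Counting peaks over gene and flanks, LP replicates 1 and 2 had 59 and 117 in all and HP replicates 1 and 2 had 104 and 120. LP replicate 1 alone stood low, and the populations did not separate on this total.

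Gnaq was the 1 of the 7 genes with more peaks in both HP libraries than in both LP libraries, with 12 and 17 in LP and 27 and 28 in HP. This was the case for 18.7% of the 20740 protein-coding genes with a peak in their window, so 1 of 7 was no larger a share. Prkcb was the 1 gene with the opposite order, 6 and 10 peaks in LP against 0 and 2 in HP, which held for 7.35% of genes. In the remaining genes the counts of LP and HP met or overlapped. By the bases covered instead of the number of peaks, Gnaq, Gna11 and Rasgrp3 were higher in both HP libraries. The share of all genes with this order was not counted, so whether these genes stood out from the rest cannot be said. From LP replicate 2 to HP replicate 1 the margin was narrow at Gna11 (4978 and 5092 bp) and Rasgrp3 (2612 and 2824 bp). The Gna11 window also holds the starts of Gna15 and Aes. In the 2 neighbouring regions at the Gna11 start that were called in at least 2 libraries, LP had 633 and 1893 bp, and HP had 1488 and 1853 bp. Left out were chr10:81542609-81542953, called in LP replicate 2 alone (345 bp), and chr10:81540932-81541488, called in HP replicate 2 alone (557 bp). The count of genes with more peaks in HP rested on LP replicate 2 and HP replicate 1. It was 6 without the first, which left LP with the library of fewest peaks (57942), and 4 without the second. The shares over all genes in these settings were not counted.

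**Figure D1:**
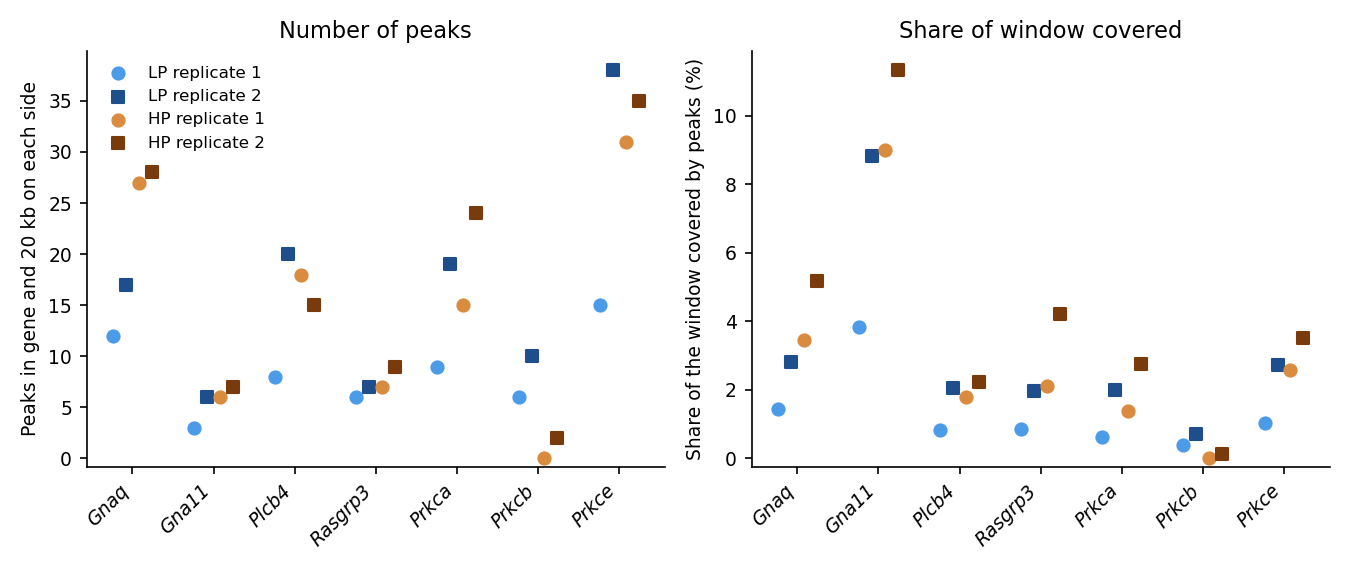
Number of H3K27ac peaks (left, count) and percent of the window covered by peaks (right) for each gene with 20 kb on each side, 1 point per library, with LP libraries in blue and HP libraries in brown. Gnaq has 27 and 28 peaks in HP against 12 and 17 in LP, and Prkcb has 0 and 2 in HP against 6 and 10 in LP.

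Of the 284 regions, 11 were called in all 4 libraries and could be compared by pileup. Of these, 6 lay within 3 kb of a start site, including that of Aes near Gna11, and 5 in introns. In all 11 both HP libraries stood above both LP libraries, as they did in 74.8% of the regions called in all 4 libraries. By limma with Benjamini-Hochberg adjustment over all 12084 regions, 2 of the 11 were higher in HP at an adjusted p of at most 0.05, against 4.01% of all. Both were intronic, 2 of 5 where the share over all intronic regions was 9.85%. None of the 6 promoter regions passed, where 3.1% of all promoter regions did, and 0 of 11 were lower in HP, where 0% of all were. At an unadjusted p under 0.05, 3 of the 11 were higher in HP and 0 were lower, against 36.2% of all higher. The median difference was 0.83 over the 6 promoter regions (all promoter regions 0.90) and 1.24 over the 5 intronic regions (all intronic regions 1.07).

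The variance that limma used was the same for every region, giving each log2 difference a standard error of 0.54 with 2 libraries per population. Once each library was centred on its median, which shifted every difference by 1.01, the promoter median was -0.18 and the intronic median 0.23, and none of the 11 passed. An exact permutation test of 2 libraries against 2 cannot go below a two-sided p of 0.333. The limma variance, pooled over all regions, was taken as known (infinite prior degrees of freedom). A p-value therefore does not measure the spread between the libraries of its own region. No label says that the replicates were separate cultures, so the pooled spread between libraries may be technical. In sorted pools, acetylation in more of the cells and more acetylation per cell cannot be told apart.

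**Figure D2:**
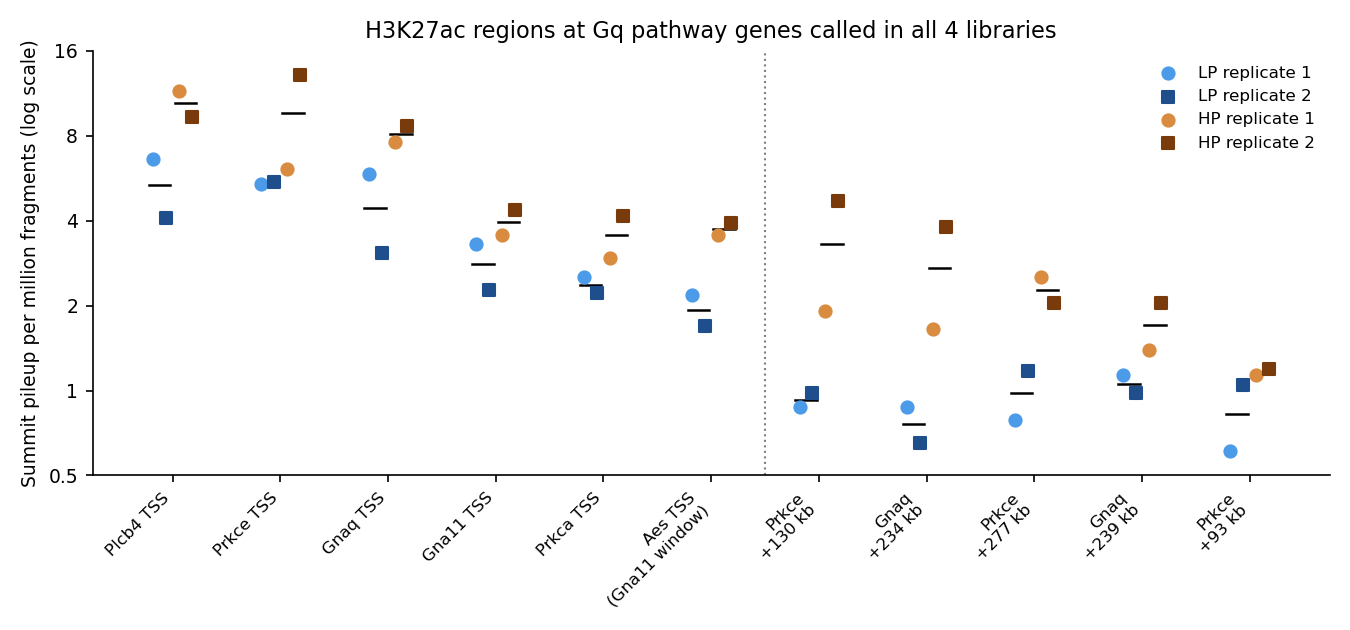
Summit pileup per 1000000 fragments (log scale) of the 11 regions called in all 4 libraries, with regions within 3 kb of a TSS left of the dotted line and intronic regions right of it. Points are libraries and black bars the means of the 2 libraries of a population, and both HP points lie above both LP points in all 11.

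**Figure D3:**
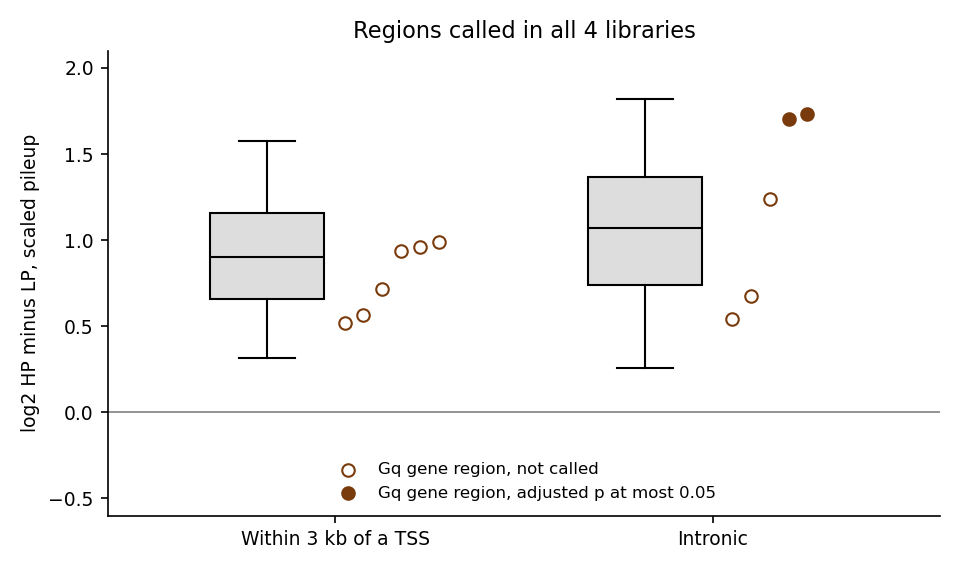
HP minus LP difference of log2 scaled pileup for the 11 regions at Gq genes (circles, filled at an adjusted p of at most 0.05) beside all regions of the class called in all 4 libraries (box, median and quartiles, with whiskers at the 5 and 95 percentiles). The 6 promoter circles run from 0.52 to 0.99 and the 5 intronic circles from 0.54 to 1.73.

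Gnaq, on the plus strand of chromosome 19 (chr19:16132831-16387463), encodes the alpha subunit after which the Gq class is named. Its start site lay in a CpG-dense promoter that was acetylated in every library, and its strongest intronic element, 234 kb downstream of the start, had more than 3 times the pileup in HP. The promoter is shown first, as the 250 bases before the RefSeq start (RefSeq, GRCm38.p6, plus strand), with every CpG in capitals to show their density.
Gnaq promoter, chr19:16132434-16132683: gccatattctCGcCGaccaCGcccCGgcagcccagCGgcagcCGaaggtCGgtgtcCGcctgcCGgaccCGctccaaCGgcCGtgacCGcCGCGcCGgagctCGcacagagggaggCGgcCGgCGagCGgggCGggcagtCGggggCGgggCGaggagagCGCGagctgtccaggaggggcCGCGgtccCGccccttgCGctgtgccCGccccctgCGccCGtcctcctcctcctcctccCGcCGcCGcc
These bases held 79.2% GC and 37 CpG, a ratio of observed to expected CpG of 0.95, where the medians over 32851 RefSeq promoters were 52.4% and 0.37.

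The region over this promoter, chr19:16132067-16134147, had scaled pileups of 5.84 and 3.06 in LP replicates 1 and 2 and 7.58 and 8.63 in HP replicates 1 and 2. The HP libraries were both above the LP libraries, and LP replicate 2 was the lowest. Its HP minus LP difference was 0.93 on the log2 scale, with a 95% confidence interval of -0.13 to 2.00 and an adjusted p of 0.174 (limma). The region was similarly wide in all libraries, with 1612 and 1784 bp of peak in LP cells against 1952 and 2032 bp in HP cells. By distance over the 4 log2 scaled pileups, the start regions outside the 7 genes most like it were those of Egr1, an immediate early transcription factor (distance 0.0671), Slc35b2 (0.160), a transporter of sulfate donor into the Golgi, and Ubp1 (0.163), a transcription factor.

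In the Gnaq intron at 234 kb, chr19:16366784-16368444, scaled pileups were 0.87 and 0.65 in LP and 1.65 and 3.79 in HP, from 10, 10, 19 and 54 fragments. HP replicate 2 stood far above the rest, with a summit above 86.3% of the peaks of its library, while HP replicate 1 was still above both LP libraries. The difference was 1.73 (95% interval 0.67 to 2.80), a fold of 3.32 between the population means on the log scale, with an adjusted p of 0.0475 (limma). It was 0.92 in replicate 1 and 2.54 in replicate 2. The covered length grew from 174 and 501 bp in LP to 593 and 1661 bp in HP.

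The call at this intronic region did not hold with the replicate number as a block (adjusted p = 0.0607), with centring (0.9997) or quantile normalization (0.9999), when pileups were scaled by fragment length as well (0.0655) or when a region's summits were averaged (0.115). It was also lost without LP replicate 1, LP replicate 2 or HP replicate 2, with limma taking the lone library to vary like the other population. The region's difference in these fits was 1.94, 1.52 and 1.13. The 300 bases about its summit in mm10 (plus strand, intronic, no exon) are printed because this is the Gnaq element that passed the test.
Gnaq intronic region at 234 kb, chr19:16366821-16367120: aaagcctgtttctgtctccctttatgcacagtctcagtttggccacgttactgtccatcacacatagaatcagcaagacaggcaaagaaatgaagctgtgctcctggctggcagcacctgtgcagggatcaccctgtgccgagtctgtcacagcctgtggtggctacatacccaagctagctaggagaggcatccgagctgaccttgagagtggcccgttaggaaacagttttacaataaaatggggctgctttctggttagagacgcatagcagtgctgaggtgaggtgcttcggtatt

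A further intronic Gnaq region 239 kb from the start, chr19:16371220-16373502, had scaled pileups of 1.13 and 0.98 in LP and 1.39 and 2.03 in HP. The difference was 0.68, with an adjusted p of 0.286 (limma). It and the region at 234 kb belonged to a group of 4 regions between 234 and 239 kb. Such groups hold regions called in at least 2 libraries with no gap above 5 kb. They were formed after the values were seen, and regions called in 1 library were left out, here chr19:16369346-16369616 (HP replicate 2) among others. Of these 4, 3 were called in LP replicate 1, 3 in LP replicate 2, 3 in HP replicate 1 and 4 in HP replicate 2.

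The first intron of Gnaq held a second group of 3 regions 36 to 39 kb from the start. None was called in LP replicate 1, 2 were called in LP replicate 2, and all 3 were called in both HP libraries. Their peaks spanned 0 and 486 bp in the LP libraries, against 1379 and 2387 bp in the HP libraries. This group too was formed after the values were seen, and the share of groups with such a pattern was not counted. Over all regions called in 3 libraries, the missing one was an LP library in 95.5%. The first region of the group, chr19:16168170-16169286, was called only in HP, at scaled pileups of 1.39 and 1.61 (16 and 23 fragments). It had the highest mean pileup of all HP-only regions at the 7 genes. Its summit sequence is shown for that reason (mm10, plus strand, intronic).
Gnaq HP-only region at 36 kb, chr19:16168545-16168844: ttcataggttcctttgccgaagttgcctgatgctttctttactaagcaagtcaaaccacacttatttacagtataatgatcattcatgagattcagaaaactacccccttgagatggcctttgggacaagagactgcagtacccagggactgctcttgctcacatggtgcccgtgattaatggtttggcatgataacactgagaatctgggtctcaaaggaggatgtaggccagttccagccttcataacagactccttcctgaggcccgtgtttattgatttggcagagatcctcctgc

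**Figure D4:**
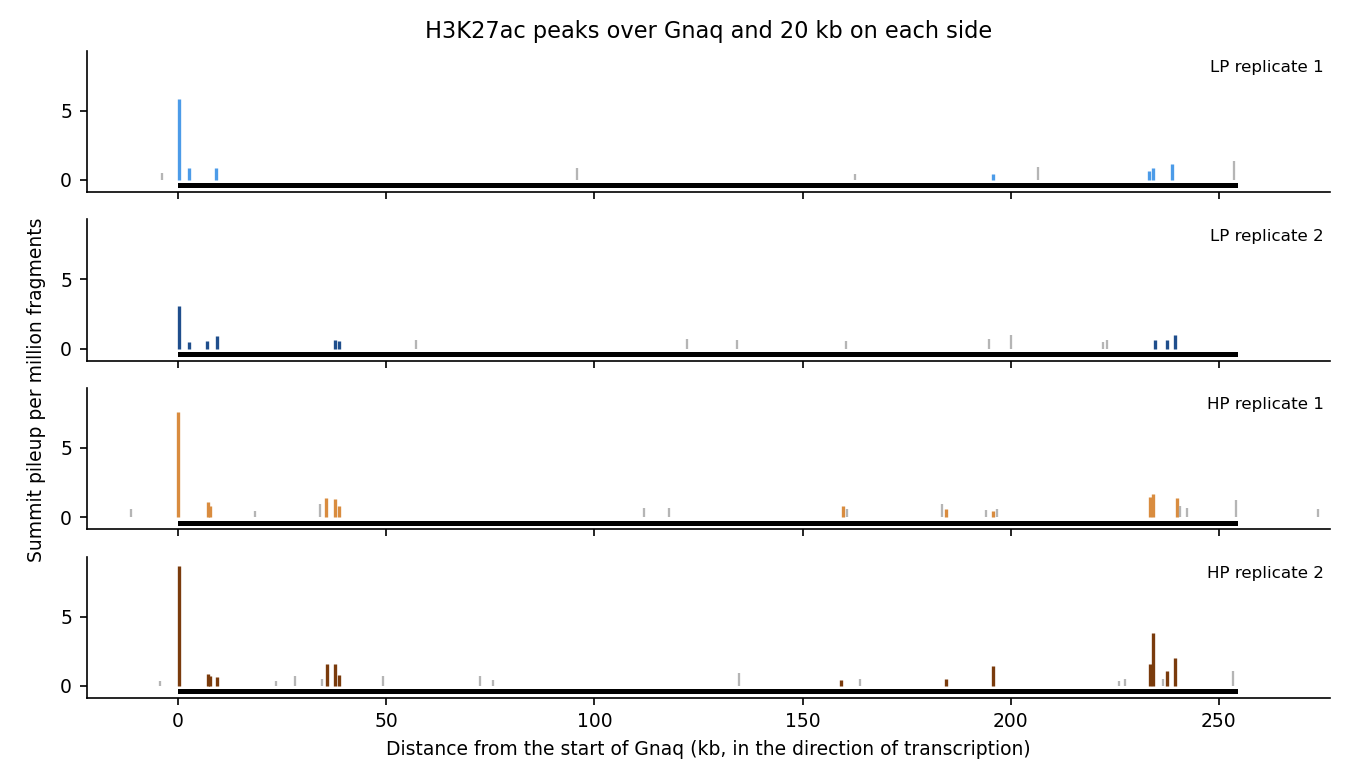
Summits of the H3K27ac peaks over Gnaq and 20 kb on each side, by distance from the gene start (kb) and summit pileup per 1000000 fragments, with 1 panel per library. Coloured lines are regions called in at least 2 libraries, grey lines regions called in 1, and the black bar is the gene, with the element at 234 kb reaching 3.79 in HP replicate 2 against 0.87 and 0.65 in LP.

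The 1 region at the 7 genes that was called in both LP libraries and in neither HP library also lay in Gnaq, at chr19:16135238-16135530. This region had its summit 2.6 kb from the gene start and lay within 3 kb of a Gnaq start site. Its scaled pileups were 0.87 and 0.46, from 10 and 7 fragments, where the lowest pileup of any peak was 5 fragments in LP replicate 1 and 6 in LP replicate 2. Such LP-only regions made up 0.249% of all regions, and 0.352% of those at the 7 genes. Without LP replicate 1 the count was 77, without LP replicate 2 it was 38, and without HP replicate 2 it was 3. Most regions were called in a single library, and the shares over all regions in these settings were not counted.

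Gna11, on the minus strand of chromosome 10 (chr10:81528724-81545190), encodes the closest relative of the Gnaq product. Its start region was called in every library and did not pass the test. At chr10:81544351-81545754 the scaled pileups were 3.31 and 2.28 in LP and 3.57 and 4.35 in HP. HP replicate 1 was just above LP replicate 1, and the difference of 0.52 (95% interval -0.54 to 1.58) had an adjusted p of 0.394 (limma). After centring it was -0.49. A region 3 kb inside the gene was called in LP replicate 2 and in both HP libraries, at 0.85, 0.87 and 1.54.

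The 20 kb flanks of Gna11 reached the start sites of other genes. Downstream, the start of Gna15, which encodes another alpha subunit of the Gq class, lay in a region called only in HP (chr10:81523700-81524232), at 1.04 and 1.54. Upstream, the start of Aes, which encodes a Groucho-family corepressor, lay in a region called in all 4 libraries (chr10:81559055-81561735). Its scaled pileups were 2.18 and 1.69 in LP and 3.57 and 3.93 in HP, which differed by 0.96 with an adjusted p of 0.165 (limma). A second region within 3 kb of an Aes start, chr10:81562243-81563027, was called only in HP at 0.96 and 0.70.

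Plcb4, on the plus strand of chromosome 2 (chr2:135659011-136014593), encodes a phospholipase C beta, the enzyme that Gq alpha subunits switch on. It had the highest start-site pileup of the 7 genes in LP replicate 1 and HP replicate 1, where Prkce led in LP replicate 2 and HP replicate 2, and it had no HP-only region. At chr2:135658334-135660202 the scaled pileups were 6.63 and 4.10 in LP and 11.5 and 9.33 in HP. Both HP libraries were above both LP libraries, by 0.99 (95% interval -0.075 to 2.05, limma adjusted p = 0.157). After centring the difference was -0.021. In HP replicate 1 this region was above 91.8% of the start regions of protein-coding genes called in all 4 libraries, and in HP replicate 2 above 57.3%.

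Inside Plcb4 no intronic region was called in all 4 libraries. A set of 3 first-intron regions was called in 3, at 52, 139 and 208 kb from the start. The one at 208 kb, chr2:135866184-135867824, was absent from LP replicate 1 and had scaled pileups of 1.37 in LP replicate 2 and 1.74 and 1.40 in HP, so the HP libraries were scarcely above the LP library that had it. The one at 139 kb, chr2:135797437-135798798, had 0.85 in LP replicate 2, 0.61 in HP replicate 1 and 2.46 in HP replicate 2, and the populations overlapped. Further start sites of Plcb4 transcripts stood apart from the first. The RefSeq promoter at position 135764838 had 42.8% GC and no peak in any library, and a start at chr2:135982905-135983344 was called in LP replicate 2 alone (0.65).

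Rasgrp3, on the plus strand of chromosome 17 (chr17:75435896-75529054), encodes the diacylglycerol-dependent exchange factor that activates Ras downstream of Gq. The start site with a peak in most libraries was an internal one, 29 kb into the gene. The region over the internal start, chr17:75464466-75465953, was not called in LP replicate 1 and had scaled pileups of 1.11 in LP replicate 2 and 1.57 and 2.74 in HP. It was higher in HP than in the one LP library that had it, but it could not enter the test, which needed all 4 libraries. The region over the first start, chr17:75435631-75435897, was called in LP replicate 1 alone, at 0.61 from 7 fragments. Just upstream of it, a region with its summit 461 bp before the first start (chr17:75435211-75435557) was called in HP replicate 1 alone, at 0.70 from 8 fragments.

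The 2 RefSeq promoters of Rasgrp3 were poor in CpG beside that of Gnaq, with 4 and 8 CpG in 250 bases, and 47.6% and 52.8% GC. The bases before the first start are printed below with CpG in capitals, for comparison with the Gnaq promoter (RefSeq, GRCm38.p6, plus strand, cut where an exon begins). The next line gives the 300 bases about the summit over the internal start (mm10, plus strand, no exon), with a CACGTGA in capitals. This is the reverse complement of TCACGTG, the M-box that the melanocyte regulator MITF can bind.
Rasgrp3 first promoter, chr17:75435655-75435895: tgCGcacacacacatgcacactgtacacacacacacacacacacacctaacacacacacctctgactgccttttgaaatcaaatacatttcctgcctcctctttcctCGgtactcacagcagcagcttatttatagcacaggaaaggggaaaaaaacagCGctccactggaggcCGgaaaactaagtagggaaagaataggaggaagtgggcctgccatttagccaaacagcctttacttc
Rasgrp3 internal start region, chr17:75464645-75464944: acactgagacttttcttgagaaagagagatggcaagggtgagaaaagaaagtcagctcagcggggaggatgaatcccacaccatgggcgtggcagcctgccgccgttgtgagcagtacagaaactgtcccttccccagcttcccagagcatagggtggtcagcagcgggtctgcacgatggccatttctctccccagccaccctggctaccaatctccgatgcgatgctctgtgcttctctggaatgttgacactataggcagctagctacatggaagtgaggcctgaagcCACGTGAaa
The match lay 145 bp from the summit. TCACGTG on either strand occurred in 2.36% of the 13169 promoter regions called in at least 3 libraries, and in 1 of the 8 at the 7 genes.

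The RefSeq promoters of the genes also differed in base composition. The 4 that a peak covered in all libraries, at Gnaq, Gna11, Plcb4 and Prkca, had 73.2% to 85.2% GC. The Prkcb promoter had 65.2% and was covered in 1 library. Prkce had no entry in the promoter table.

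Of the 3 protein kinase C genes, Prkca and Prkce had an acetylated start in every library and Prkcb did not. Protein kinases C phosphorylate many targets on diacylglycerol, and PRKCB is known to activate tyrosinase, the first enzyme of melanin synthesis. Prkca and Prkcb encode conventional, calcium-dependent forms, and Prkce a calcium-independent one. The highest HP pileups among them were at the Prkce start, with scaled values of 6.10 and 13.1.

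Prkca lies on the minus strand of chromosome 11 (chr11:107933387-108343928), and its start region also covered the start of Apoh, so the signals of the 2 genes could not be separated. At chr11:108342574-108344599 the scaled pileups were 2.53 and 2.21 in LP and 2.96 and 4.14 in HP. The difference of 0.56 (95% interval -0.50 to 1.63) had an adjusted p of 0.358 (limma) and was -0.45 after centring. In an intron 321 to 324 kb from the start, 4 regions called in at least 2 libraries lay close together. Of these, LP replicate 1 had 0, LP replicate 2 had 3, HP replicate 1 had 2 and HP replicate 2 had 4. Among them chr11:108020494-108021103 was called only in HP, at 1.22 and 1.75, and chr11:108018473-108020422 was missing in LP replicate 1 and had 0.59 in LP replicate 2, 0.87 in HP replicate 1 and 2.17 in HP replicate 2. Further HP-only regions stood 85 kb (chr11:108258820-108259777, at 1.48 and 0.77) and 67 kb (chr11:108277131-108277690, at 0.78 and 0.63) from the start.

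Prkcb, on the plus strand of chromosome 7 (chr7:122288751-122634402), held 18 regions over 345652 bp of gene and its flanks, each called in a single library. HP replicate 1 had none of them. The region nearest a start, chr7:122288856-122289189, was called in LP replicate 2 alone at a scaled pileup of 0.85 (13 fragments). The remaining LP peaks had 5 to 13 fragments, and the 2 peaks of HP replicate 2 had 6 and 7. None of the LP peaks recurred at the same place in both LP libraries.

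Prkce, on the plus strand of chromosome 17 (chr17:86167785-86657919), was the longest of the 7 genes and had the most regions. Its start region, chr17:86166099-86169043, had scaled pileups of 5.41 and 5.47 in LP and 6.10 and 13.1 in HP. HP replicate 2 was far above the rest and HP replicate 1 was close to LP. The difference of 0.72 (95% interval -0.35 to 1.78, limma adjusted p = 0.264) changed call with a library, being 1.27 at an adjusted p of 0.0337 without HP replicate 1, and it was -0.29 after centring. In that fit without HP replicate 1, 57.3% of all regions and 3 of the 11 at the 7 genes were higher in HP.

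The Prkce element that passed the test lay in the first intron 130 kb from the start, at chr17:86296970-86297877. Its scaled pileups were 0.87 and 0.98 in LP and 1.92 and 4.70 in HP, from 10, 15, 22 and 67 fragments. As at the Gnaq element, HP replicate 2 was the highest and both HP libraries were above both LP libraries. The difference was 1.70 (95% interval 0.64 to 2.77), a fold of 3.25, with an adjusted p of 0.0493 (limma), and it was 1.14 in replicate 1 and 2.27 in replicate 2. The call was lost with the replicate number as a block (adjusted p = 0.0623), with only peaks of q at most 0.01 (0.0515), with scaling by fragment length as well (0.0668), with averaged summits (0.115), and with centring (0.9997) or quantile normalization (0.9999). It was also lost without LP replicate 1, LP replicate 2 or HP replicate 2, where a population was left with a lone library. The difference in these fits was 1.62, 1.78 and 1.05. The summit sequence is printed as the counterpart of the Gnaq element (mm10, plus strand, intronic, no exon).
Prkce intronic region at 130 kb, chr17:86297238-86297537: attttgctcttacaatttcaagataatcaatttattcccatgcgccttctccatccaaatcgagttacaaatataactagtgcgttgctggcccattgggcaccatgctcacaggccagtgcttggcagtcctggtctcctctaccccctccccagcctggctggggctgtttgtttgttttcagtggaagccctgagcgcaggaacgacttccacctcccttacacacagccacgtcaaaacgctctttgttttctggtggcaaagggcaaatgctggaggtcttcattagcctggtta

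On its upstream side this element had 2 neighbours called in at least 2 libraries, 125 and 127 kb from the start. The one at 127 kb, chr17:86294887-86295574, was called only in HP, at 1.31 and 1.47. The one at 125 kb, chr17:86292674-86293857, had 0.61 in LP replicate 1, was not called in LP replicate 2 and had 1.57 and 2.31 in HP. The peaks of all 3 regions spanned 671 and 218 bp in the LP libraries, against 1926 and 2575 bp in the HP libraries. Like the Gnaq groups, this one was formed after the values were seen, and the share of groups with such a pattern was not counted. The sequence about the summit at 125 kb held CACATGA, the reverse complement of the M-box variant TCATGTG, and TGAGTCA, a match to the AP-1 motif TGANTCA, both in capitals (mm10, plus strand, intronic).
Prkce intronic region at 125 kb, chr17:86292989-86293288: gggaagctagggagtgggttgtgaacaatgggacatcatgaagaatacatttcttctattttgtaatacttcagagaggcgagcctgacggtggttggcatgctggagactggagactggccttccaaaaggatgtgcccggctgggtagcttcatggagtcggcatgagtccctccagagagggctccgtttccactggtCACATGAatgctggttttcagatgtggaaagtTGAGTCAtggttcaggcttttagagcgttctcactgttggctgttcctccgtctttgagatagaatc

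Another pair of intronic regions of Prkce were called in all 4 libraries. The one at 277 kb, chr17:86444341-86445535, had scaled pileups of 0.78 and 1.17 in LP and 2.53 and 2.03 in HP. Both replicate numbers showed the higher HP value, by 1.69 and 0.80, and the pooled difference of 1.24 had an unadjusted p of 0.0224 and an adjusted p of 0.104 (limma). The one at 93 kb, chr17:86260688-86261177, had 0.61 and 1.04 in LP and 1.13 and 1.19 in HP, where the populations nearly touched (difference 0.54, limma adjusted p = 0.375). Next to it, chr17:86261405-86261843 was called only in HP, at 0.96 and 1.19.

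Farther into Prkce 5 regions called in at least 2 libraries stood between 244 and 251 kb from the start. Of these, LP replicate 1 had 0, LP replicate 2 had 3, HP replicate 1 had 3 and HP replicate 2 had all 5. Those called only in HP were chr17:86412287-86412810, at 1.22 and 1.47, and chr17:86414267-86415215, at 0.78 and 1.75. Another HP-only region lay at 302 kb (chr17:86468955-86469706, at 1.13 and 1.54). At 270 kb the region chr17:86437509-86438263, chosen after its values were seen, was missing in LP replicate 1 and had 1.30 in LP replicate 2, 1.48 in HP replicate 1 and 4.28 in HP replicate 2.

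**Figure D5:**
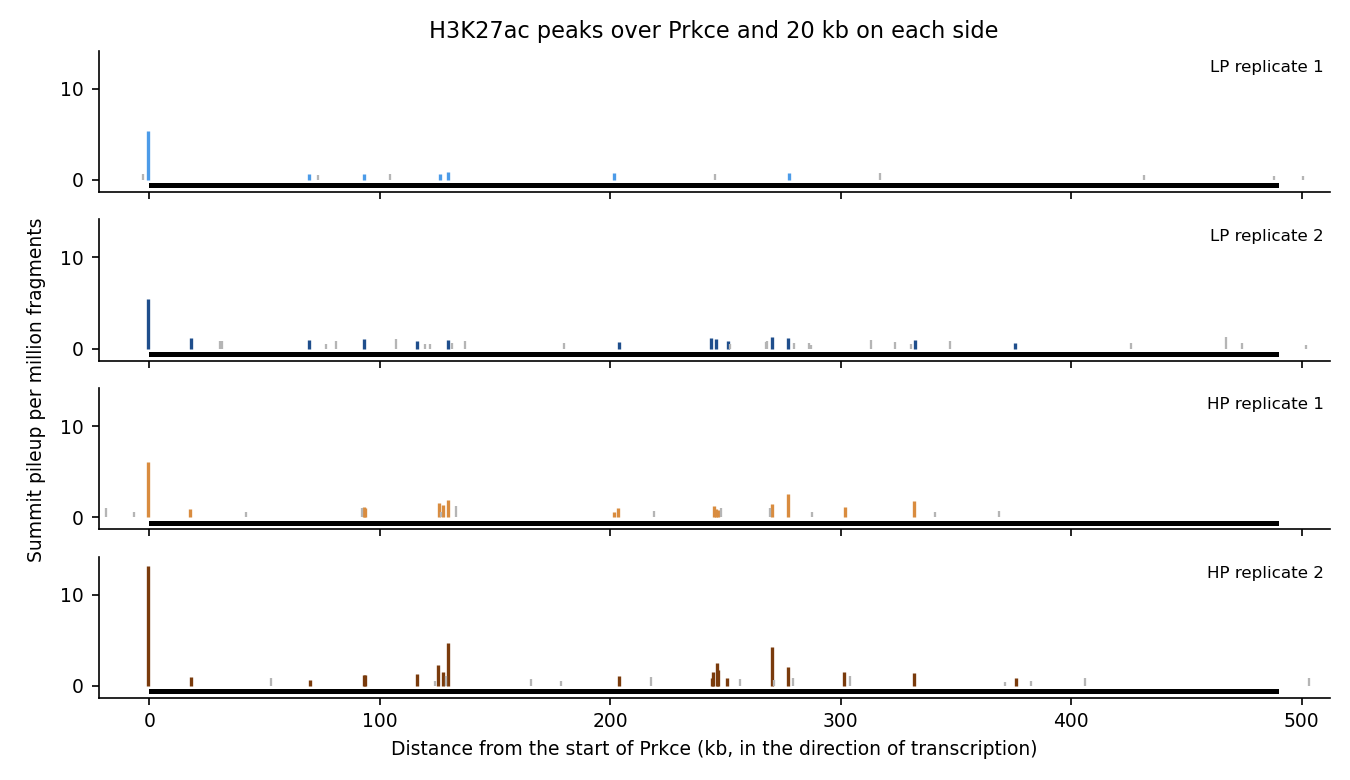
Summits of the H3K27ac peaks over Prkce and 20 kb on each side, by distance from the gene start (kb) and summit pileup per 1000000 fragments, with 1 panel per library. Coloured lines are regions called in at least 2 libraries, grey lines regions called in 1, and the black bar is the gene, with the element at 130 kb reaching 1.92 and 4.70 in HP against 0.87 and 0.98 in LP.

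Counted over the 7 genes, 15 of the 284 regions were called in both HP libraries and in neither LP library, against 3.94% of all regions. Of the 61 regions called in at least 2 libraries these were 24.6%, where the share over all such regions was 21.5%, so the 7 genes were near the background. They divided into 5 at Prkce, 4 at Gnaq, 3 at Prkca, 2 at Gna11 and 1 at Rasgrp3, with 0 at Plcb4 and Prkcb. Those counted at Gna11 lay in its flanks, at or near the starts of Gna15 and Aes. Of those at Gnaq the region chr19:16140362-16141232, 8 kb from the start, had 0.78 and 0.70. The count of 15 was 28 without LP replicate 2, 74 without HP replicate 1 and 66 without HP replicate 2. It was 8 when peaks up to 500 bp apart were merged. The shares over all regions in these settings were not counted.

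Most acetylated places at these genes were seen once. In a single library 223 regions (78.5%, all regions 81.7%) were called, with a median scaled pileup of 0.61 and a highest of 1.40. Of the 20 regions called in 3 libraries, LP replicate 1 was the missing one in 13, LP replicate 2 in 5, HP replicate 1 in 2 and HP replicate 2 in 0. Over all regions called in 3 libraries the missing one was an LP library in 95.5%.

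Across the summit windows of 300 bp, 5 short motifs were searched on both strands: the M-boxes TCACGTG and TCATGTG, the AP-1 motif TGANTCA, the cyclic AMP response element TGACGTCA and CTTTGAT, a match to the LEF and TCF factors. None of the 11 regions called in all 4 libraries held any of them. Of the 23 non-promoter regions called in at least 3 libraries, 3 held an M-box, all in the first intron of Prkce, where 7.69% of 5838 such regions did. Besides the region at 125 kb these lay at 18 and 69 kb, and the latter had TCACGTGA, which reads as an M-box on both strands. AP-1 matches stood in the windows of 2 of the 23 (all such regions 10.3%). The same held for 1 of the 12 HP-only regions away from promoters (11.1%), the Gnaq region at chr19:16292108-16292705. That match, at 16292717-16292723, lay past the end of the called region.

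The rest of the pathway was read from 54 further genes at their start sites. In 30 of them the start region was called in all 4 libraries and in 12 in none. None of the 30 passed the limma threshold in either direction, where HP was higher in 2.48% and lower in 0% of the 8551 start regions of protein-coding genes called in all 4 libraries. An unadjusted p under 0.05 was reached by 11 in the HP direction (all start regions 31.3%) and by 0 in the LP direction. All 30 differences were above 0 (all start regions 99.5%), both HP libraries were above both LP libraries in 26 (73.8%), and the median was 0.95, or -0.057 after centring. For comparison, 44.1% of 21924 protein-coding genes had a start region called in all 4 libraries, with a median of 0.89. Without HP replicate 1 the number of pathway genes higher in HP was 12 of 30, where 54.6% of all start regions were.

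The widest differences in the pathway list were at Dgkh, a kinase that removes diacylglycerol, Plcd1, a phospholipase C delta, and Gnb2, a G beta subunit. Dgkh had scaled pileups of 2.01 and 2.41 in LP and 6.79 and 5.68 in HP (difference 1.50, limma adjusted p = 0.0678), with both HP libraries far above LP. Plcd1 had 0.78 and 1.11 against 2.09 and 2.95 (1.41, limma adjusted p = 0.0789), and Gnb2 had 1.66 and 2.93 against 3.92 and 7.72 (1.32, limma adjusted p = 0.0922). At the other end stood Rhoa, a small GTPase of the actin cytoskeleton, Rgs2, which ends Gq signals by speeding GTP hydrolysis, and Plcg1, the phospholipase of receptor tyrosine kinases. Their differences were 0.16, 0.21 and 0.36, and in all 3 the libraries of the populations overlapped. Rhoa had 19.7 and 7.43 in LP and 10.9 and 16.8 in HP, so its replicates moved in opposite directions (-0.86 and 1.18).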

How the data were processed

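H3K27ac ChIP-seq libraries of LP and HP B16 F10 cells (2 each) were grouped by their labels. The authors converted reads with bcl2fastq 2.20, trimmed them with Trimmomatic 0.33, aligned them with Bowtie2 2.5.1 to mm10 and ran MACS 3.0.0b1 on each library for narrow peaks, at q of at most 0.05 against the IgG library of the same number. The deposited lists give the summit pileup, a signal in whole fragments without scaling, the fold enrichment over the local background, a ratio, the −log10 p-value and −log10 q-value, and a score. Pileups were divided by the total fragments in the file headers. Duplicates were kept by the authors.

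Peaks overlapping by at least 1 bp were merged, and a region's pileup was its highest summit. Regions within 3 kb of a GENCODE TSS were called promoter. limma 3.58.1 (R 4.3.3) compared log2 scaled pileups over regions called in all 4 libraries, with a threshold of 0.05. Labels state that DNA input was equal within each replicate set, so replicate numbers pair libraries, although their deviations correlated at 0.0153 over regions. The block was an alternative. Merging and limma were tested on simulated data.

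Named were the 7 genes, their regions at start sites, in all 4 libraries, only in LP and only in HP (the 12 of highest mean pileup of 15), pathway genes that passed or had the 3 highest and 3 lowest differences, and 3 genes like Gnaq. Windows with M-boxes were added after the matches were seen, and the Gnaq promoter replaced its exonic summit. The genes and lists were chosen with earlier results of these data known. RefSeq promoter entries (GRCm38.p6) matched 6 of the 7 genes. Tables and figures used Python 3.11.15 with scipy 1.17.1, pandas 2.3.3, pysam 0.24.0, matplotlib 3.10.9 and numpy 2.4.6. Reads were not used here.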

Additional observations from a re-analysis of the deposited data

How the results depend on the processing

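Of 208 values under alternatives, 142 kept their direction and call, or moved by less than the margin set for counts and untested values, and 1 could not be computed (the Prkce region at 93 kb with peaks of q at most 0.01). The cause of the changes was not tested. The 2 regions higher in HP became 0 with centring, quantile normalization, scaling by fragment length, the replicate block or mean summits, 1 with q of at most 0.01, and 0 to 3 when a library was left out. Differences turned negative after centring and quantile normalization at the Gnaq region at 239 kb (-0.33 and -0.34), Gna11 (-0.49 and -0.47), Aes (-0.048 and -0.067), Prkca (-0.45 and -0.46), the Prkce start (-0.29 and -0.16) and the Prkce region at 93 kb (-0.47 and -0.29), and after centring alone at the Gnaq start (-0.076) and Plcb4 (-0.021). The promoter median was -0.18 and -0.11 in these 2 settings. The intronic median was 0.23 and 0.26 there, 0.99 with mean summits, 1.47 with q of at most 0.01 and 0.95 to 1.52 without a library. HP-only regions numbered 8 with merging at 500 bp and 20 to 74 without a library, and LP-only regions 1 to 77. Within replicate numbers (the replicate block), 79.5 were called in HP and not LP and 59 the reverse, as means of both numbers. Genes with more peaks in HP were 2 with 5 kb flanks, 3 by bases covered, 4 within replicate numbers and 1 to 6 without a library. For these HP-only, LP-only and gene counts, shares over all regions or genes were not counted in the alternative settings. Pathway genes higher in HP were 0 to 12 without a library. The replicate block changed no other call. In the intronic regions called in all 4 libraries LP pileups were 7 to 18 fragments, so their counting error is wide.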
